A study of Mus musculus with 8 samples.

Results

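The 6 endocytic receptor genes followed here were *Lrp1*, the class A scavenger receptor genes *Msr1* and *Colec12*, the class B genes *Cd36* and *Scarb1*, and the class F gene *Scarf1*. They were chosen by symbol, each matched 1 Ensembl gene, and the 6 were taken from a table of 26062 gene IDs. RNA sequencing had been done on microglia, the resident macrophages of the brain, isolated by magnetic-activated cell sorting (MACS) from the LGN, the lateral geniculate nucleus, where retinal axons end in the thalamus. All mice were wild type C57BL/6J males aged 2-3 months. There were 2 libraries from uninjured mice, 3 from mice 1 day after crush of both optic nerves and 3 from mice 3 days after it. Whether each library holds 1 animal or several is not stated, so p-values measure the spread among libraries, which may be technical.

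LRP1 is a very large receptor of the low-density lipoprotein (LDL) receptor family that binds apolipoprotein E, protease and inhibitor complexes, and calreticulin on dying cells, and carries them to the lysosome. Scavenger receptors are a structurally diverse collection of surface proteins defined by their binding of modified lipoproteins, and many also bind apoptotic cells, lipids or microbial surfaces. Microglia use both kinds of receptor to clear debris, and some of them are also made by endothelial, perivascular or glial cells. The study's title concerns the clearance of synaptic material by microglia after injury.

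All 6 genes passed the filter on low counts, which left 17390 genes for testing. None of the 6 shares exonic bases with another gene in GENCODE M21. *Lrp1* had 12522 to 18493 counts per library, *Msr1* 548 to 1717, *Cd36* 436 to 1013, *Scarb1* 205 to 712, *Colec12* 48 to 235 and *Scarf1* 13 to 120. Differences in *Colec12* and *Scarf1* were therefore measured least precisely. Levels are given as CPM, the counts of a gene relative to its library's total, scaled by edgeR's TMM factors. A gene is said to have risen or fallen, or to be called, where its p from edgeR's quasi-likelihood test was under 0.05 after Benjamini-Hochberg adjustment across the tested genes.

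Library totals were 12700098 to 17994861 counts. Fewer genes had a count at 1 day (18035 to 20220) than in uninjured mice (21663 and 22395) or at 3 days (20632 to 21044). Mitochondrial genes took 22.5% and 21.3% of counts in the uninjured libraries, 13.6%, 21.9% and 13.9% at 1 day, and 22.8%, 28.9% and 30.3% at 3 days, with day 1 replicate 2 apart from its group. The part of this share in the differences between groups was not tested. The 10 microglial markers summed to 8254 and 10852 CPM in uninjured mice, 11794 to 14499 CPM at 1 day and 8076 to 9542 CPM at 3 days, with none at 0 in any library. Summed markers of other cell types that the preparation could hold were 1427 to 1660, 788 to 987 and 1136 to 1297 CPM for mural cells in the same order, 89.5 to 264, 38.8 to 69.9 and 82.9 to 331 CPM for fibroblasts, and 527 to 5544, 1.09 to 56.6 and 624 to 3588 CPM for choroid plexus. Astrocyte markers summed to 132.5 to 174, 95.6 to 155 and 79.6 to 91.0 CPM, neuron markers to 16.8 to 19.0, 15.0 to 21.3 and 12.9 to 18.6 CPM, and oligodendrocyte markers to 86.5 to 119, 68.3 to 126 and 72.8 to 114 CPM. Of these 6 lists, the choroid plexus markers were the ones with the widest range, and 7 of the 8 had no count in at least 1 library.

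The RefSeq promoter table for GRCm38.p6 held 2 of the 6 genes, *Lrp1*, the member that rose over uninjured mice, and *Cd36*, which did not. The 250 bases before each annotated start are shown 5′ to 3′ on the minus strand, the strand of both genes. Any link between these bases and the calls was not tested. Capitals mark GC boxes (GGGCGG on either strand, the Sp1 family motif) and CCAAT boxes (CCAAT on either strand). The windows are chr10:127621149-127621398 for *Lrp1* and chr5:17835897-17836146 for *Cd36*.
Lrp1: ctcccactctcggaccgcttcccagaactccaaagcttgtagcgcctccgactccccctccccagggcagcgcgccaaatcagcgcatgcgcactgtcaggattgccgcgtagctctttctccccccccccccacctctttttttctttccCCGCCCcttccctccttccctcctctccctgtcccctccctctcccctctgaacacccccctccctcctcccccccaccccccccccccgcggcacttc
Cd36: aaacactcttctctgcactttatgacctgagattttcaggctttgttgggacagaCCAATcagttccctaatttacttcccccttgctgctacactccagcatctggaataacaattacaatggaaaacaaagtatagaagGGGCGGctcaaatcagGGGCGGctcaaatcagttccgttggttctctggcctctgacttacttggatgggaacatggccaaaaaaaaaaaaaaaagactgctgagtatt

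The *Lrp1* window had a GC content of 67.2%, higher than 86.5% of all promoters of that length, and 1 GC box, 99 bases before the start. The *Cd36* window had 43.2% GC, higher than 19.0% of promoters, with 2 GC boxes at 109 and 93 bases and 1 CCAAT box at 195 bases before the start. A GC box was present in 32.7% and a CCAAT box in 33.8% of the 32851 promoter windows. Neither window held TATAAA (12.4% of windows) or the AP-1 site TGANTCA (6.75%), each searched on both strands. These matches are a description of the letters, and which start site was used in these cells was not tested.

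*Lrp1* (ENSMUSG00000040249, chromosome 10) was the most abundant of the 6. Per kilobase of exon it averaged 59.6 CPM over the 8 libraries (39.0 to 70.3). *Cd36* followed at 14.1 (9.74 to 16.9) and *Msr1* at 11.9 CPM per kilobase (6.37 to 20.2), whose ranges overlapped, with *Cd36* above *Msr1* in 6 of 8 libraries. *Scarb1* stood at 3.13 CPM per kilobase (1.88 to 4.31), below *Msr1* and above *Colec12* in all 8. *Colec12* at 1.21 (0.441 to 1.84) and *Scarf1* at 1.18 CPM per kilobase (0.361 to 2.22) did not differ beyond their spread. These values assume even coverage of the exons, which was not tested in these amplified libraries.

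**Figure D1:**
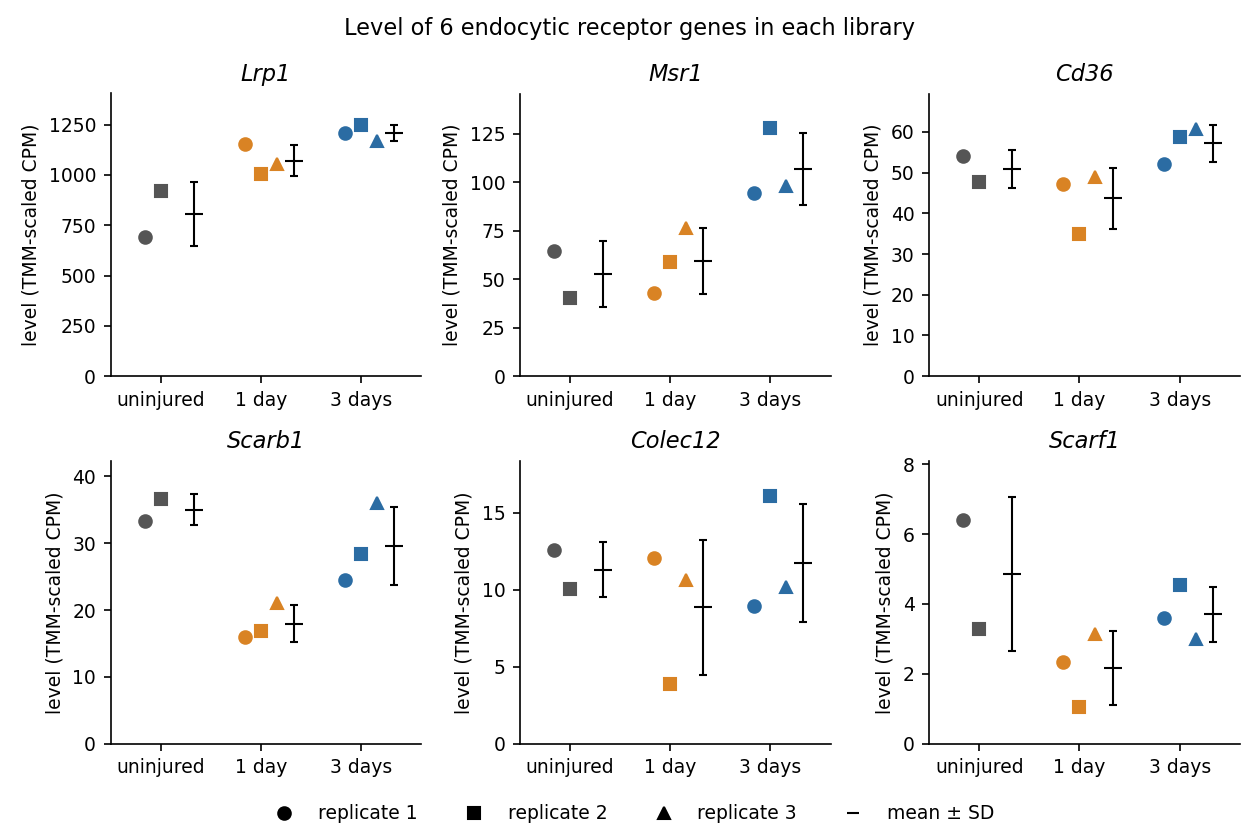
TMM-scaled CPM (y axis, from 0) of each receptor gene in the 8 libraries, by group (x axis), with symbols for the replicate number and the mean ± SD of the group (n = 2, 3 and 3) to the right of its points. The 3 day libraries lie above the uninjured ones for *Lrp1* and *Msr1*, and the 1 day libraries lie below them for *Scarb1* and *Scarf1*.

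*Lrp1* rose by 3 days. Its level was 691 and 917 CPM in the uninjured libraries, 1156, 1005 and 1052 CPM at 1 day, and 1209, 1246 and 1167 CPM at 3 days. Every injured library was above both uninjured ones, and every 3 day library was above every 1 day library. From 804 ± 160 CPM without injury (SD, n = 2), the level was 1207 ± 39.2 CPM at 3 days (SD, n = 3), a 1.50-fold rise (95% interval 1.20 to 1.88; log2 fold change 0.59, SE 0.15, edgeR adjusted p = 0.0475). At 1 day it was 1071 ± 77.2 CPM (SD, n = 3), 0.41 higher on the log2 scale (95% interval 0.09 to 0.73) with an adjusted p of 0.203 by edgeR, which is not a call. Between 1 and 3 days the difference was 0.17 (95% interval −0.11 to 0.46, edgeR adjusted p = 0.451).

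The *Lrp1* call lay close to the threshold. It was also made by DESeq2 (adjusted p = 0.0163), limma-voom (0.00578) and a fit to the 5 uninjured and 3 day libraries alone (0.0416). It was not made without the filter on low counts (adjusted p = 0.0582) or with scaling by library size alone (log2 fold change 0.43, adjusted p = 0.231). Scaling by library size moved the median of all genes from −0.0016 to −0.15, and relative to that median the *Lrp1* difference was 0.59 with either scaling. Leaving out uninjured replicate 1, the library with the lowest level, reduced the log2 fold change to 0.39 (adjusted p = 0.531). The call was also lost when day 1 replicate 1 (0.0536) or 3 (0.0689) was left out, and when any of day 3 replicates 1, 2 and 3 was (0.139, 0.142 and 0.180). It held without uninjured replicate 2 (0.0377) or day 1 replicate 2 (0.0477). The log2 fold change stayed between 0.39 and 0.80 with each of the 8 libraries left out.

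Other cell types also express *Lrp1*, and their part in its rise was not tested. At 3 days the summed mural and astrocyte markers lay below the uninjured range, and the fibroblast, neuron and choroid plexus sums overlapped it. Uninjured replicate 1, with the lower *Lrp1* level (691 CPM), had choroid plexus markers at 5544 CPM and microglial markers at 8254 CPM. Uninjured replicate 2 (917 CPM of *Lrp1*) had 527 and 10852 CPM. The part of this difference in the *Lrp1* call was not tested. Single markers differed in direction: 4 of 11 mural markers had a positive difference from uninjured mice, and at an unadjusted p under 0.05 there were 1 higher and 3 lower. The mural sum was mostly *Rgs5*, which was lower at 3 days (673 to 806 CPM) than without injury (917 and 1083 CPM). *Pdgfrb* (37.7 to 47.7 against 28.3 and 30.3 CPM) and *Cspg4* (39.8 to 47.5 against 17.9 and 26.8 CPM) were higher without overlap. Of all tested genes, 20.1% were higher and 19.3% lower without overlap in this comparison. By edgeR 0 of the 11 mural markers were called, and their median log2 fold change was −0.44. Of 11 astrocyte markers, 3 had a positive difference. In bulk samples such as these, fewer cells of a type and less RNA per cell cannot be told apart.

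*Msr1* (ENSMUSG00000025044, chromosome 8), which encodes the collagen-like scavenger receptor A of macrophages, was the other gene that rose, between 1 and 3 days. It had 64.5 and 40.4 CPM in the uninjured libraries, 42.7, 59.1 and 76.3 CPM at 1 day, and 94.5, 127.8 and 97.9 CPM at 3 days. The 1 day libraries overlapped the uninjured ones, and all 3 day libraries were above all others. The level went from 59.4 ± 16.8 CPM at 1 day (SD, n = 3) to 107 ± 18.4 CPM at 3 days (SD, n = 3), a 1.80-fold rise (95% interval 1.26 to 2.57; log2 fold change 0.85, SE 0.24, edgeR adjusted p = 0.0377). Against uninjured mice (52.5 ± 17.0 CPM, n = 2) the difference at 3 days was 1.02 on the log2 scale (95% interval 0.43 to 1.62), with an edgeR adjusted p of 0.0601, which is not a call. At 1 day it was 0.18 (95% interval −0.40 to 0.76, edgeR adjusted p = 0.842), and it turned negative without uninjured replicate 2 (−0.12) or day 1 replicate 3 (−0.044).

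DESeq2 called *Msr1* both against uninjured mice (adjusted p = 0.00999) and against 1 day (0.0102), as did limma-voom (0.0227 and 0.0279), the fits without a filter (0.0283 and 0.0143) and the fits to the libraries of 2 groups alone (0.0162 and 0.0323). With scaling by library size alone neither was called (0.128 and 0.0559). The rise from 1 to 3 days lost its call when day 1 replicate 1 (adjusted p = 0.113) or 2 (0.0560) was left out, and when any of day 3 replicates 1, 2 and 3 was (0.0686, 0.145 and 0.0928). Its log2 fold change ranged from 0.65 to 1.07 with 1 library left out. The difference from uninjured mice was called without day 1 replicate 1 (0.0294) or day 1 replicate 3 (0.0499), and ranged from 0.73 to 1.39 over the 8 libraries left out.

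Other myeloid cells also make *Msr1*, and their part in its rise was not tested. Monocyte and neutrophil markers summed to 52.7 and 68.9 CPM without injury, 79.6 to 184 CPM at 1 day and 34.5 to 48.8 CPM at 3 days. Border macrophage markers summed to 618 and 743 CPM, 562 to 805 CPM and 407 to 511 CPM. Both sums were lowest in the 3 day libraries. The border macrophage sum was mostly *Mrc1*, and 3 of its 8 markers had a positive difference from uninjured mice at 3 days and 1 of 8 from 1 day. For the monocyte and neutrophil markers it was 2 and 0 of the 12 tested, and 7 of the 16 listed had no count in at least 1 library.

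**Figure D2:**
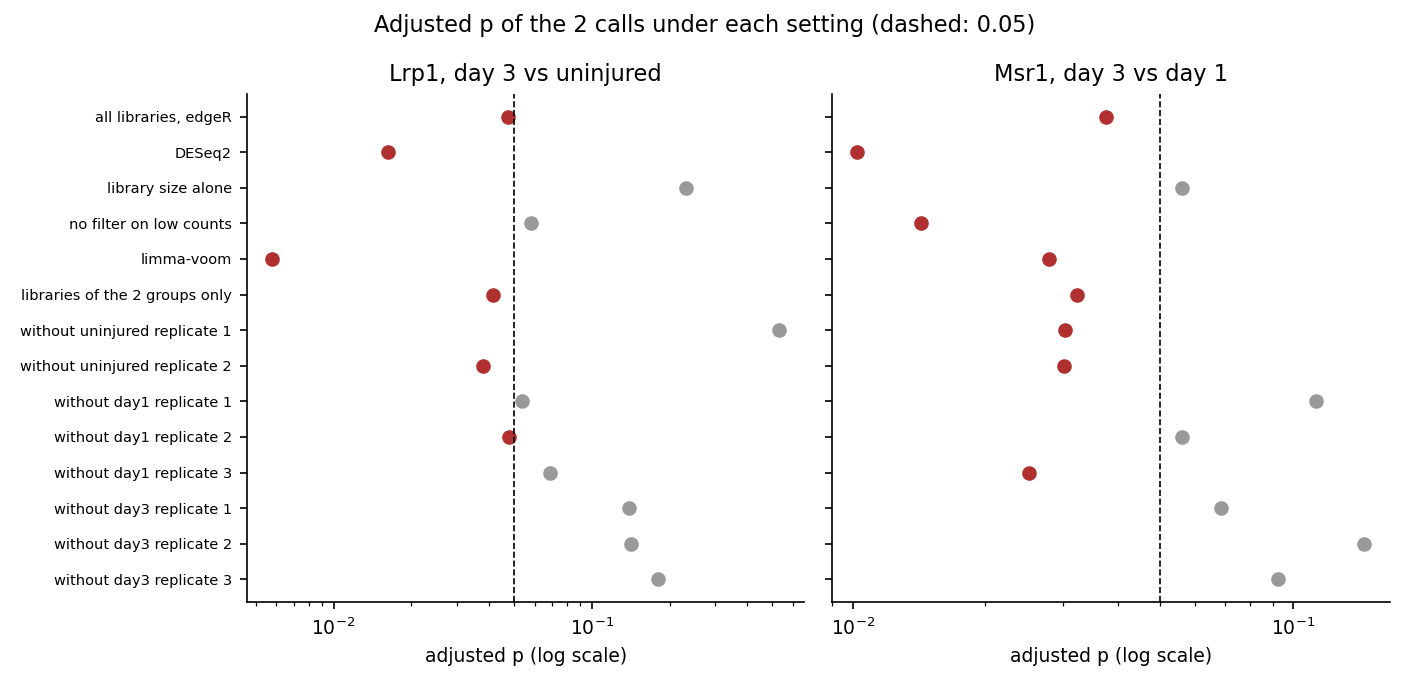
Adjusted p (x axis, log scale) of the *Lrp1* difference between 3 days and no injury and of the *Msr1* difference between 3 days and 1 day, in edgeR with all libraries (top row), with other methods and with each library left out (y axis). Red points are under 0.05 (dashed line): 2 of 8 libraries left out kept the *Lrp1* call and 3 of 8 the *Msr1* call.

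*Colec12* (ENSMUSG00000036103, chromosome 18), a class A receptor with a sugar-binding domain that is known from vascular and stromal cells, was low and was not called in any comparison. It had 12.6 and 10.04 CPM without injury, 12.1, 3.85 and 10.7 CPM at 1 day, and 8.96, 16.1 and 10.2 CPM at 3 days. The 3 groups overlapped, and day 1 replicate 2 was the lowest library. Its log2 fold change was −0.35 at 1 day (95% interval −1.43 to 0.73) and 0.05 at 3 days (−1.04 to 1.14), so that a 2-fold fall lay within both intervals and a 2-fold rise within the second. The sign at 3 days was negative with scaling by library size alone (−0.098), without the filter on low counts (−0.0060), without uninjured replicate 2 (−0.099) and without day 3 replicate 2 (−0.29).

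*Cd36* (ENSMUSG00000002944, chromosome 5), whose product takes up long-chain fatty acids and oxidised LDL and binds thrombospondin, was not called in any comparison. It had 54.1 and 47.6 CPM without injury, 47.2, 35.0 and 48.9 CPM at 1 day, and 52.0, 58.8 and 60.8 CPM at 3 days. The uninjured libraries overlapped both injured groups, while the 3 day libraries were all above the 1 day ones. The log2 fold change was −0.22 at 1 day (95% interval −0.71 to 0.27), 0.17 at 3 days (−0.33 to 0.67) and 0.39 between the times (−0.056 to 0.83), with adjusted p of 0.756, 0.819 and 0.258 by edgeR. None of the 3 intervals reaches a 2-fold change in either direction.

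*Scarb1* (ENSMUSG00000037936, chromosome 5), the high-density lipoprotein receptor that transfers cholesteryl esters into cells, had its lowest levels at 1 day. It stood at 33.4 and 36.7 CPM in the uninjured libraries, 15.97, 16.9 and 21.1 CPM at 1 day, and 24.5, 28.4 and 36.0 CPM at 3 days. The 1 day libraries were below all others, and the 3 day libraries overlapped the uninjured ones. The log2 fold change at 1 day was −0.96 (95% interval −1.58 to −0.34), from 35.0 ± 2.32 to 18.0 ± 2.76 CPM, with an edgeR adjusted p of 0.113. DESeq2 called it lower (adjusted p = 0.0258), and edgeR did not with any of the 8 libraries left out (0.0943 to 0.590). The difference between 3 days and 1 day was 0.72 (95% interval 0.16 to 1.28, edgeR adjusted p = 0.0968), and at 3 days against no injury it was −0.24 (−0.86 to 0.38, adjusted p = 0.785 by edgeR).

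*Scarf1* (ENSMUSG00000038188, chromosome 11), a receptor for acetylated LDL first known from endothelial cells that also binds apoptotic cells, had the lowest counts of the 6. It had 6.41 and 3.30 CPM without injury, 2.34, 1.04 and 3.14 CPM at 1 day, and 3.60, 4.54 and 2.99 CPM at 3 days. The 1 day libraries were below both uninjured ones, by a small margin for day 1 replicate 3. The log2 fold change at 1 day was −1.15 (95% interval −2.67 to 0.37, edgeR adjusted p = 0.514). At 3 days it was −0.39 (−1.91 to 1.13, edgeR adjusted p = 0.877), and 0.16 without uninjured replicate 1.

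Summed endothelial markers were lowest at 1 day, as were the mean levels of *Scarb1* and *Scarf1*, neither called by edgeR in any comparison. The mural, fibroblast and choroid plexus sums were also lowest at 1 day. The 15 endothelial markers summed to 2014 and 2221 CPM without injury and 992 to 1221 CPM at 1 day. At 3 days their sum was 1770 to 1831 CPM, and none was at 0 in any library. At 1 day 7 of the 15 fell by edgeR and 0 rose, also by DESeq2, by limma-voom or at an unadjusted p under 0.05 (2 fell without uninjured replicate 1 and 3 without uninjured replicate 2), with a median log2 fold change of −0.87, where 1.16% of all tested genes fell. From 1 to 3 days 8 of 15 rose, beside 5.24% of all genes, and 0 fell (5 rose without day 3 replicate 3), with a median of 0.76. *Lrp1* had its lowest level in the 2 uninjured libraries, where the summed endothelial markers were highest. The part of endothelial RNA in the *Scarb1*, *Scarf1* and *Lrp1* values was not tested.

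**Figure D3:**
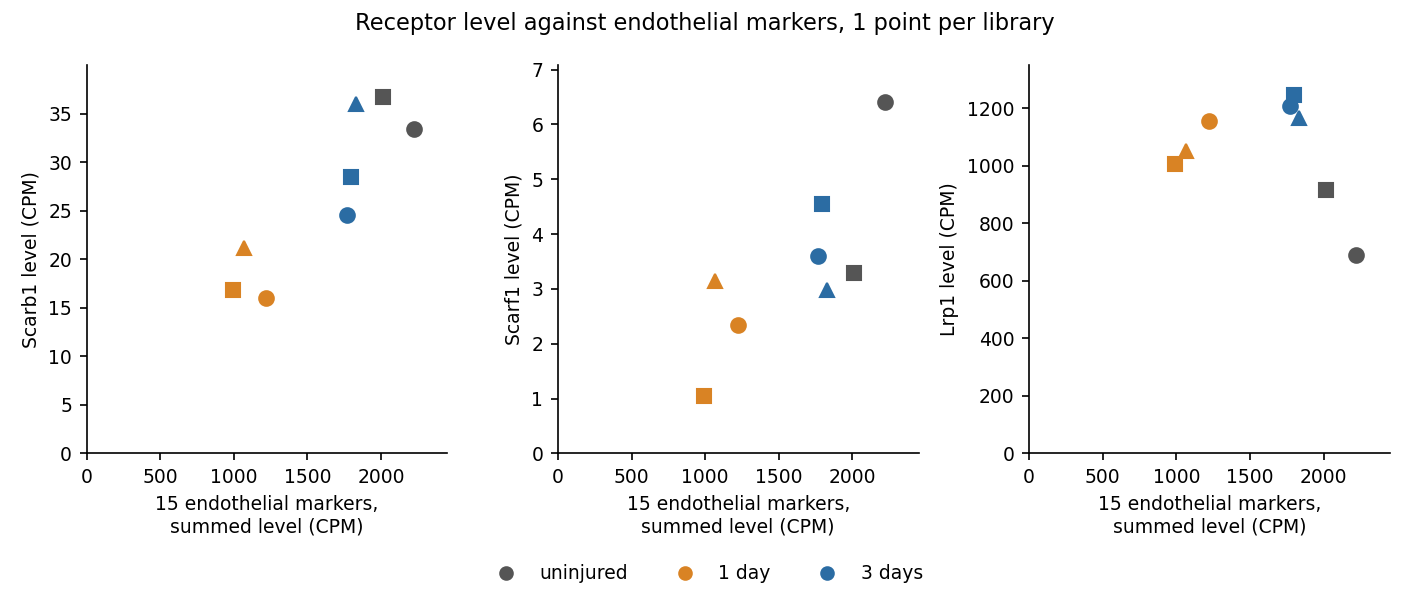
Level of *Scarb1*, *Scarf1* and *Lrp1* (y axes, TMM-scaled CPM from 0) against the summed level of 15 endothelial markers (x axis, CPM), 1 point per library, coloured by group and shaped by replicate number as in the plot of levels. The 1 day libraries, with 992 to 1221 CPM of markers, have the 3 lowest *Scarb1* values, while for *Lrp1* the uninjured libraries are the lowest.

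Set side by side, 0 of the 6 genes was called at 1 day by edgeR, where 1.77% of all tested genes were called (0.610% rose and 1.16% fell). At an unadjusted p under 0.05 there were 2, *Lrp1* (higher) and *Scarb1* (lower), against 14.8% of all genes; DESeq2 called 1 (*Scarb1*) and limma-voom 0. At 3 days 1 of 6 rose and 0 fell against uninjured mice, where 3.47% of all genes were called (2.49% rose and 0.983% fell). At an unadjusted p under 0.05 there were 2, *Lrp1* and *Msr1*, both higher, against 15.8% of all genes. From 1 to 3 days 1 of 6 rose and 0 fell, where 11.0% of all genes were called (5.24% rose and 5.75% fell), and 2 had an unadjusted p under 0.05, *Msr1* and *Scarb1*, against 26.2% of all genes. The median log2 fold change of the 6 was −0.28 at 1 day and 0.11 at 3 days against uninjured mice, and 0.56 from 1 day to 3 days, beside 0.06, −0.0016 and 0.02 over all tested genes. All 6 had a positive difference from 1 to 3 days, as had 8876 of 17390 genes. The 3 comparisons share libraries, since the uninjured pair enters 2 of them and each injured group 2.

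Groups that did not overlap were common in the whole table. At 1 day *Lrp1* was above the uninjured range and *Scarb1* and *Scarf1* below it, where 14.3% of all genes were above and 15.0% below. At 3 days *Lrp1* and *Msr1* were above it and none below (20.1% of all genes above and 19.3% below). From 1 to 3 days *Lrp1*, *Msr1*, *Cd36* and *Scarb1* were higher without overlap and none was lower (16.1% and 13.6% of all genes).

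**Figure D4:**
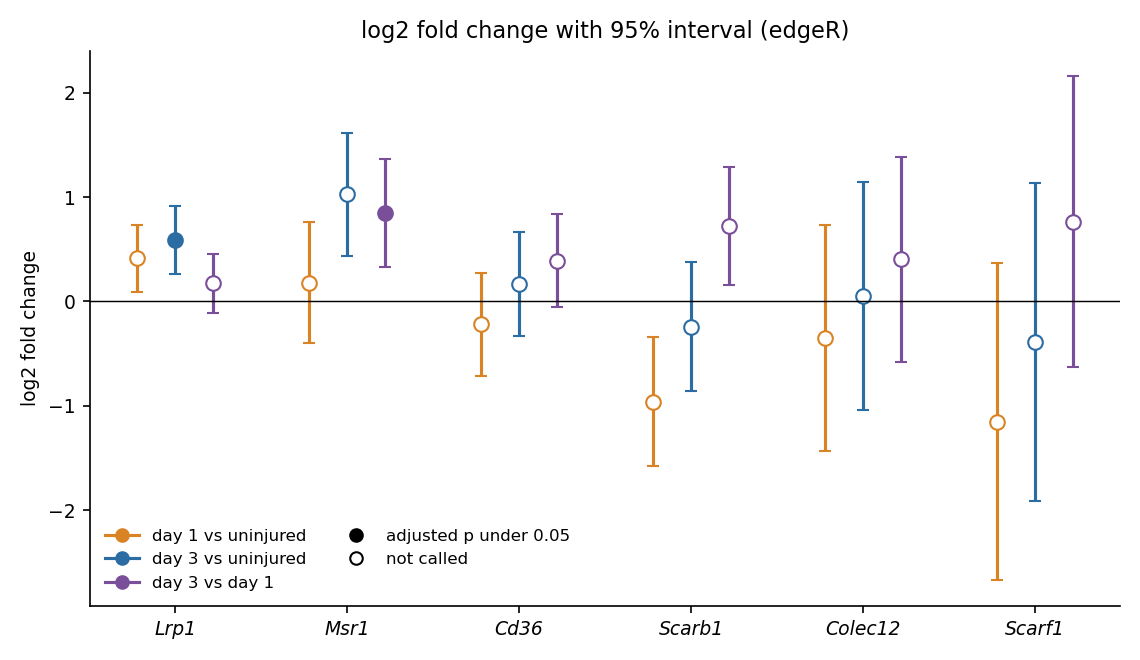
log2 fold change (y axis) of each receptor gene (x axis) in the 3 comparisons, with 95% intervals from the edgeR fit. Filled points have an adjusted p under 0.05: *Lrp1* at 3 days against no injury (0.59) and *Msr1* at 3 days against 1 day (0.85). Intervals are narrowest for *Lrp1* and widest for *Scarf1*.

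Among 18 other scavenger receptor genes, 17 were tested. The shares of all tested genes that rose were 0.610% at 1 day, 2.49% at 3 days and 5.24% from 1 to 3 days, and those that fell 1.16%, 0.983% and 5.75%. At 3 days 3 rose and 0 fell against uninjured mice (median log2 fold change 0.13; 1 lower at an unadjusted p under 0.05, 0 by DESeq2 and limma-voom, and 1 fell without day 1 replicate 2): *Cd68*, a lysosomal glycoprotein of phagocytes that binds oxidised LDL, *Olr1*, the lectin-like receptor for oxidised LDL, and *Cd14*, the co-receptor for lipopolysaccharide. *Olr1* went from 30.8 ± 3.81 CPM (n = 2) over 57.1 ± 7.74 CPM at 1 day (n = 3) to 99.1 ± 16.5 CPM at 3 days (n = 3), a log2 fold change of 1.69 at 3 days (edgeR adjusted p = 0.00107). *Cd14* rose from 225 ± 26.3 CPM to 697 ± 83.7 CPM at 3 days (1.63, edgeR adjusted p = 0.000954) and *Cd68* from 339 ± 53.0 to 791 ± 26.8 CPM (1.22, edgeR adjusted p = 0.000676). These 3 rises held with each of the 8 libraries left out. They were larger in log2 fold change than that of *Lrp1* (0.59); the differences between genes were not tested.

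At 1 day 1 of the 17 rose, *Cd14* (466 ± 148 CPM, log2 fold change 1.05, edgeR adjusted p = 0.0257), and 0 fell (1 at an unadjusted p under 0.05, 0 by DESeq2 and limma-voom, and 1 without day 1 replicate 3). DESeq2 called 4 higher and limma-voom 3. *Cd14* lost its call at 1 day when uninjured replicate 1 (0.379) or 2 (0.0549) or day 3 replicate 3 (0.0586) was left out and in the libraries of those 2 groups alone (0.110), and 2 of the 17 rose without day 1 replicate 1 or day 1 replicate 3. From 1 to 3 days 2 rose, *Olr1* (0.80, edgeR adjusted p = 0.0199) and *Cd68* (0.59, edgeR adjusted p = 0.0139). *Olr1* lost that call when day 1 replicate 1 (0.0510) or 3 (0.0660) or day 3 replicate 2 (0.0860) or 3 (0.0842) was left out. *Cd68* lost it when day 1 replicate 3 (0.0602) or day 3 replicate 1 (0.0513) or 3 (0.0641) was left out, and 3 genes of the list rose when day 1 replicate 2 was. None fell by edgeR between the times (1 at an unadjusted p under 0.05, 1 by DESeq2 and 1 by limma-voom), although 1 did without uninjured replicate 1, uninjured replicate 2 or day 1 replicate 2. *Mrc1*, the mannose receptor, had 381 ± 66.1, 399 ± 113 and 254 ± 42.6 CPM and an edgeR adjusted p of 0.0508 between the times. *Scarb2*, the lysosomal relative of *Cd36* and *Scarb1*, was not called, at 389 ± 3.43, 391 ± 42.7 and 427 ± 102 CPM. *Marco*, a class A receptor related to *Msr1*, had 0 to 17 counts per library and was not tested.

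Of 20 other genes of the LDL receptor family and of partners of LRP1, 18 were tested, and 0 were called by edgeR at 1 day or at 3 days against uninjured mice, beside 1.77% and 3.47% of all tested genes. With p unadjusted, 2 higher and 2 lower genes were under 0.05 at each time. DESeq2 called 1 lower at 1 day and 1 higher at 3 days, and limma-voom 1 lower and 0. The medians were 0.0032 and 0.03.

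*Lrpap1*, which encodes the chaperone that LRP1 needs for folding in the endoplasmic reticulum, was the 1 member of that list called between 1 and 3 days, beside 11.0% of all genes. Its level was 57.3 and 49.2 CPM without injury, 44.9, 63.4 and 42.0 CPM at 1 day, and 77.6, 87.5 and 120.5 CPM at 3 days. All 3 day libraries were above all others. The rise from 1 day was 1.90-fold (log2 fold change 0.93, SE 0.22, edgeR adjusted p = 0.0164), and it lost its call when day 1 replicate 1 (0.0509) or 3 (0.0616) or day 3 replicate 3 (0.114) was left out. Without day 1 replicate 2, 2 members of the list rose. Against uninjured mice the *Lrpap1* difference at 3 days was 0.84 (edgeR adjusted p = 0.0938).

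Of 19 genes for LRP1 ligands, 18 were tested. At 3 days 4 rose and 1 fell against uninjured mice (median log2 fold change 0.09), beside 2.49% and 0.983% of all tested genes. At 1 day 2 rose and 1 fell, beside 0.610% and 1.16%. *Lpl*, the lipoprotein lipase gene, had the largest rise, from 48.4 ± 5.40 over 65.6 ± 36.1 to 1123 ± 203 CPM (4.54, edgeR adjusted p = 0.000166). *Calr*, the gene of calreticulin, went from 252 ± 9.64 CPM to 475 ± 47.7 CPM at 1 day (0.91, edgeR adjusted p = 0.0100) and 621 ± 81.8 CPM at 3 days (1.30, edgeR adjusted p = 0.000488). *Plau*, the gene of urokinase, went from 122 ± 11.8 to 200 ± 13.8 CPM at 1 day (0.71, edgeR adjusted p = 0.0396) and 243 ± 22.5 CPM at 3 days (0.99, edgeR adjusted p = 0.00396). *Serpine2*, a protease inhibitor gene, reached 279 ± 8.99 CPM at 3 days from 168 ± 42.6 CPM without injury (0.73, edgeR adjusted p = 0.0472) and 190 ± 28.3 CPM at 1 day (0.55, edgeR adjusted p = 0.0461). *Timp3*, a metalloproteinase inhibitor gene, fell from 329 ± 17.0 CPM to 144 ± 27.7 CPM at 1 day (−1.19, edgeR adjusted p = 0.00421) and 165 ± 13.8 CPM at 3 days (−0.99, edgeR adjusted p = 0.00672).

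The *Lpl* rise and the 3 day rise of *Calr* held with each library left out. Without uninjured replicate 1 the calls were lost for *Calr* at 1 day (0.163), *Plau* at 3 days (0.100) and *Timp3* at 1 day (0.0551), leaving 0 ligand genes called at 1 day, and 2 that rose and 0 that fell at 3 days. A second ligand gene fell at 1 day without uninjured replicate 2 or day 1 replicate 3, and 3 rose at 3 days when any day 3 library was left out. At 1 day *Plau* kept its call when day 1 replicate 3 was left out (0.0456), and lost it for each of the other 7 libraries (0.0655 to 0.536). From 1 to 3 days, where 5.24% of all genes rose and 5.75% fell, 2 ligand genes rose, *Lpl* and *Serpine2*, and 1 fell, *Tgfb1* (from 234 ± 63.9 to 130 ± 6.83 CPM, −0.85, edgeR adjusted p = 0.0138). *Serpine2* lost that call when day 1 replicate 1 (0.0839) or 3 (0.145) or any of day 3 replicates 1, 2 and 3 (0.0985, 0.102 and 0.141) was left out. *Tgfb1* lost it when day 1 replicate 1 (0.0507) or 3 (0.0590) or day 3 replicate 2 (0.0555) or 3 (0.0672) was left out. With either uninjured library left out 3 ligand genes rose, and DESeq2 called 5 higher. Scaling by library size ended the calls of *Plau* at 1 day (0.142) and *Serpine2* between the times (0.0599), and *Plau* at 1 day was not called without the filter (0.0553) or in the libraries of those 2 groups (0.161). *Apoe*, at 258 ± 41.4, 298 ± 43.1 and 268 ± 33.8 CPM, was not called in any comparison. *Plat*, the tissue plasminogen activator gene, had 43.0 ± 5.35, 21.9 ± 4.95 and 36.5 ± 6.83 CPM, lowest at 1 day without overlap (log2 fold change −0.97, edgeR adjusted p = 0.106). Of all tested genes, 15.0% were lower without overlap at 1 day and 16.1% higher without overlap from 1 to 3 days. The summed endothelial markers were also lowest at 1 day, and the part of endothelial RNA in the *Plat* and *Timp3* values was not tested.

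**Figure D5:**
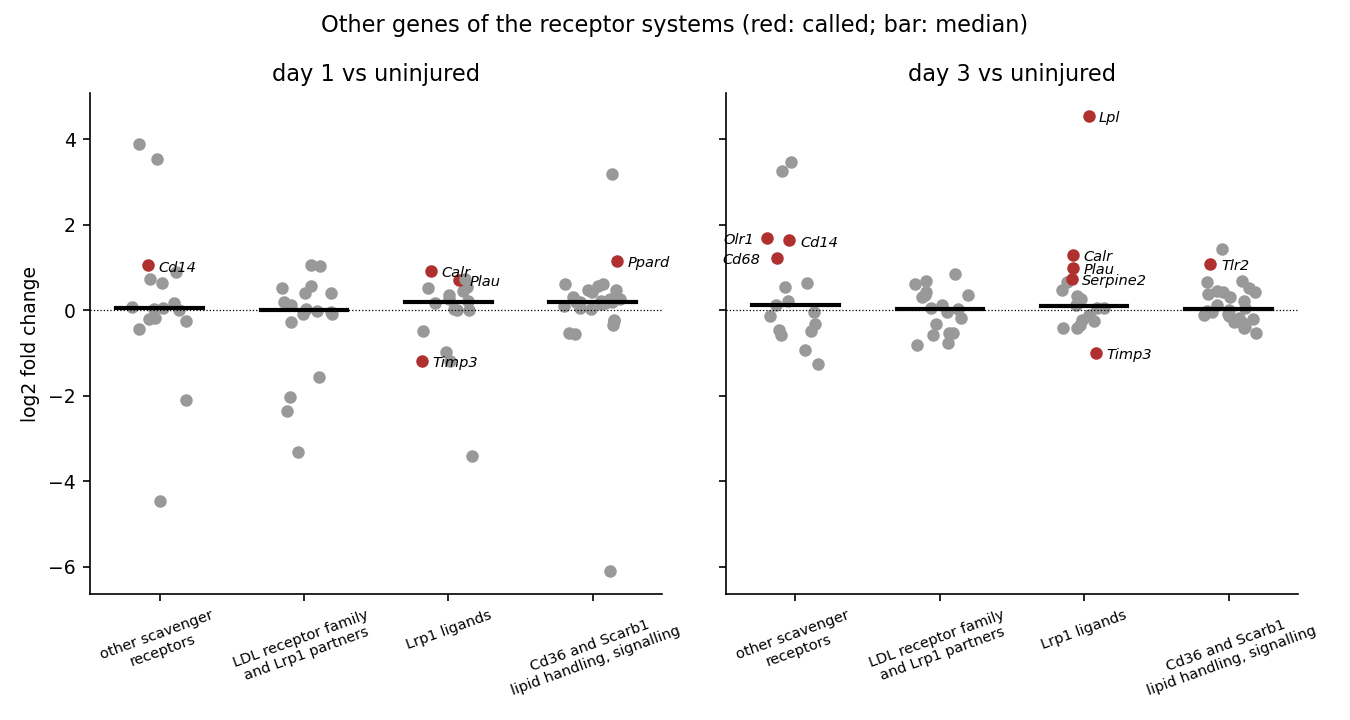
log2 fold change (y axis) of the tested genes of 4 lists (x axis) at 1 day and at 3 days against no injury, 1 point per gene, with red and a name for those at an adjusted p under 0.05 and a bar at the median. The medians lie between 0.0032 and 0.19 at 1 day and between 0.03 and 0.13 at 3 days, and *Lpl* at 3 days stands highest at 4.54.

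All 26 lipid handling and signalling genes that act with *Cd36* and *Scarb1* were tested. Of all tested genes, 0.610% rose at 1 day, 2.49% at 3 days and 5.24% from 1 to 3 days. The shares that fell were 1.16%, 0.983% and 5.75%. At 1 day 1 rose and 0 fell (median 0.19): *Ppard*, a fatty acid-sensing nuclear receptor gene, from 56.1 ± 2.71 to 125 ± 8.56 CPM (1.16, edgeR adjusted p = 0.0145; 0.173 and 0.0868 without uninjured replicates 1 and 2). It fell again to 41.7 ± 8.28 CPM at 3 days (−1.58 from 1 day, edgeR adjusted p = 0.000169, called with each library left out). At 3 days 1 rose and 0 fell against uninjured mice (median 0.03), *Tlr2*, a Toll-like receptor gene whose product works with CD36, from 324 ± 21.6 to 685 ± 31.6 CPM (1.08, edgeR adjusted p = 0.00191, called with each library left out). From 1 to 3 days 3 rose and 1 fell. *Lipa*, the lysosomal acid lipase gene, rose from 158 ± 15.1 to 258 ± 22.5 CPM (0.71, edgeR adjusted p = 0.00682, called with each library left out). *Plin2*, the gene of a lipid droplet coat protein, rose from 80.6 ± 19.3 to 136 ± 26.0 CPM (0.75, edgeR adjusted p = 0.0293), and lost its call when day 1 replicate 2 (0.0682) or 3 (0.0772) or day 3 replicate 1 (0.121) or 2 (0.0979) was left out or with scaling by library size (0.0625). The third riser was *Tlr2*, at 0.46 (edgeR adjusted p = 0.0499), and 1 or 2 of the list rose with any 1 library left out. A second gene fell without day 3 replicate 1, and at 1 day a second gene rose without day 1 replicate 3. The counts of 0 that fell in this list held by DESeq2 and limma-voom, with 1 gene at 1 day and 0 at 3 days lower at an unadjusted p under 0.05.

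The genes whose log2 CPM followed each receptor most closely over the 8 libraries were taken from 9362 genes (9363 for *Scarf1*). That pool held protein-coding genes whose mean was 5 CPM or more, leaving out predicted genes and unnamed clones. The closest genes are given as a description, over 8 libraries that share their condition within a group. For *Lrp1* they were *Ncln* (Pearson r = 0.992, Spearman rho = 0.976), *Psmd3* (0.976, 0.857) and *Grn*, the progranulin gene (0.972, 0.833). *Grn*, picked for this likeness, had means of 677, 967 and 1045 CPM in uninjured mice, at 1 day and at 3 days. For *Msr1* they were *Dab2*, an endocytic adaptor of the LDL receptor family (0.972, 0.976), *Pbrm1* (0.965, 0.881) and *Pdia3* (0.955, 1). For *Cd36* they were *Vim* (0.968, 0.905), *Arhgap21* (0.967, 0.976) and *Fancm* (0.964, 0.976).

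For *Scarb1* the closest genes were *Fmo2* (Pearson r = 0.975, Spearman rho = 0.929), *Cnn3* (0.964, 0.881) and *Igf1r* (0.959, 0.905). Their lowest mean at 1 day (2.96, 4.22 and 105 CPM against 24.0, 18.1 and 192 CPM without injury) follows largely from their being picked for likeness to *Scarb1*. For *Colec12* they were *Lyrm1* (0.956, 0.881), *Rnf219* (0.950, 0.952) and *Erlec1* (0.950, 0.524). For *Scarf1* they were *She* (0.967, 0.952), *Tfdp2* (0.966, 0.976) and *Rnf19a* (0.965, 0.952). No gene was among the closest 3 of 2 receptors.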

How the data were processed

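RNA of MACS-isolated LGN microglia was extracted with the RNAqueous Micro Kit and linearly amplified, per the labels' protocols. The authors deposited 1 table of raw counts, with Ensembl gene IDs as rows. The submitters' processing notes name FastQC, STAR, HTSeq and build mm9; the sources used here give no version, annotation or strand setting. Of 26062 IDs, 25925 matched a symbol in GENCODE M21 (GRCm38), which also gave exon lengths. No 2 libraries of a group agreed within sampling noise (chi-square per degree of freedom 31.4 to 64.8).

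All 8 libraries were fitted in edgeR 4.0.16 (R 4.3.3) with filterByExpr, TMM scaling, 1 mean per group and robust quasi-likelihood F-tests, so they share 1 estimate of the spread (biological coefficient of variation 51.1%). SE is the log2 fold change over the square root of F, and 95% intervals use the t distribution with the fit's degrees of freedom. edgeR called 308 genes at 1 day (106 higher, 202 lower; 46 and 233 with scaling by library size), 604 at 3 days (433 and 171; 317 and 244) and 1912 between the times. The procedure was also run on counts simulated from the fit's own spread, with known changes added. Those counts hold no differences in cell make-up between libraries, so they cannot test the effect of such differences on the calls. The receptors, 4 pathway lists and 10 marker lists were chosen with earlier results of these data known. Named genes are the 6 receptors, up to 3 called genes with the smallest p per pathway list and comparison, 10 fixed genes (1 is not reported here) and the 3 closest genes of each receptor; *Tlr2* between the times and *Timp3* and *Serpine2* at 3 days were named after their values were seen. Alternatives were DESeq2 1.42.0, limma-voom (limma 3.58.1), other scaling, filter or libraries, a replicate block, and each library left out; applying them to pathway genes and list counts was added after seeing the data.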

Additional observations from a re-analysis of the deposited data

How the results depend on the processing

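Of 252 values of single receptor genes under the alternatives, 223 kept their sign and side of the threshold, 15 lost a call, 7 gained one and 7 changed sign, none of them a called value. Most of the 223 were values not called in the main fit that stayed so. All 15 losses were of the called values. *Lrp1* at 3 days lost its call in 9 alternatives and kept it in 5. *Msr1* between the times lost it in 6 and kept it in 8. The sign changes were *Colec12* at 3 days (−0.098 with library size scaling, −0.0060 without a filter, −0.099 without uninjured replicate 2, −0.29 without day 3 replicate 2), *Scarf1* at 3 days (0.16 without uninjured replicate 1) and *Msr1* at 1 day (−0.12 without uninjured replicate 2, −0.044 without day 1 replicate 3). With 1 library left out these 3 differences ranged from −0.29 to 0.22, from −0.79 to 0.16 and from −0.12 to 0.55.

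The number of receptor genes called at 1 day (0) was 1 with DESeq2. At 3 days against no injury (1) it was 2 with DESeq2, limma-voom and the libraries of the 2 groups alone, 0 with library size scaling, and 0 to 1 with an injured library left out. Without the filter, without day 1 replicate 1 and without day 1 replicate 3, the 1 called receptor was *Msr1* and not *Lrp1*. Between the times (1) the number of receptor genes called was 0 with library size scaling and 0 to 1 with an injured library left out. The number of all genes called at 1 day was 816 with DESeq2, 110 in the libraries of the 2 groups and 39 to 368 with a library left out (308 as reported). At 3 days it was 1308, 1345 and 108 to 982 (604 as reported), and between the times 747 to 2362 with a library left out (1912 as reported). With 1 uninjured library the lone sample is assumed to vary like the other groups. The cause of these differences was not tested, also where fewer libraries entered.

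Libraries with the same replicate number did not deviate together (correlations of deviations −0.0599 to 0.0906, and between the 1 and 3 day groups −0.0599 to −0.0237), so the numbers were not taken as pairs. With the replicate block edgeR called 301 genes (0 receptors) at 1 day, 424 (0) at 3 days and 1700 (1) from 1 to 3 days. *Lrp1* at 3 days had an adjusted p of 0.0821 and *Msr1* between the times 0.0407 with the block. Depth limits *Scarf1* and *Colec12* most, with as few as 13 and 48 counts in a library.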
